A study of Mus musculus with 24 samples.

Results

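Glucocorticoid-induced genes were followed through hippocampal RNA sequencing of PS19 mice, in which a human tau transgene with the P301S change is driven by the mouse prion protein promoter. The 9 genes, chosen by symbol from the hippocampal count table, were Fkbp5, Sgk1, Tsc22d3, Zbtb16, Ddit4, Mfsd2a, Cdkn1a, Sult1a1 and Plin4, of 24058 symbols in all. All 9 were among the 16118 genes that passed the filter on low counts. The 24 libraries came from 6 groups of mice, all of which carried the tau transgene. Under the title prefix LG72 there were 5 females and 5 males with 1 human TREM2 allele carrying the Alzheimer-linked R47H change (R47H-TREM2, genotype P301S+;hTREM2-R47H/+), and 3 females and 2 males with mouse Trem2 alone (Trem2+/+, genotype P301S+;msTrem2+/+). Under the prefix LG73 there were 6 females in which the human TREM2 allele was the form that is not linked to disease (genotype P301S+;hTREM2-WT/+, called WT-TREM2) and 3 Trem2+/+ females. Neither the age of the mice nor what the prefixes stand for is given. R47H-TREM2 and WT-TREM2 libraries never shared a prefix, so allele and prefix cannot be told apart between them. Libraries are numbered within their group in accession order.

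Corticosterone, the main glucocorticoid of mice, is released from the adrenal gland under stress and on a daily rhythm, and enters the brain. There it binds the glucocorticoid receptor, which moves to the nucleus and raises the transcription of a set of genes within hours. The hippocampus is rich in glucocorticoid and mineralocorticoid receptors, and most of the transcripts examined here are known from mouse and rat brain to rise after corticosterone, dexamethasone or restraint. Several of them also answer to other signals, such as p53 for Cdkn1a and low oxygen for Ddit4.

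The glucocorticoid receptor binds as a pair to a palindrome of 2 arms spaced by 3 bases, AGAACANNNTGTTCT, and promoter sequences were searched for it because it is the element through which such genes answer to hormone. RefSeq windows (GRCm38.p6, from 250 bases before to 50 bases after each annotated start) matched all but Zbtb16 (8 of the 9 genes), with 16 windows. Of these, 1 window held the complete palindrome on either strand, that of Sgk1 at chr10:21993640-21993939 on the plus strand, with the match starting at -189. Among all 32851 windows of this length 3 did (0.0091%). A single arm, AGAACA or TGTTCT, lay in 5 of the 16 windows, which belonged to 3 genes (Sgk1, Sult1a1 and Tsc22d3), and in 18.97% of all windows. One window of each of these 3 genes is shown because it holds the letters searched for; the other two of Sgk1, each with a single arm, are not. The windows are that of Sgk1 with the palindrome, that of Sult1a1 at chr7:126676369-126676668 on the minus strand and that of Tsc22d3 at chrX:140600473-140600772 on the minus strand, each 5′ to 3′ along the gene with every arm in capitals.
Sgk1: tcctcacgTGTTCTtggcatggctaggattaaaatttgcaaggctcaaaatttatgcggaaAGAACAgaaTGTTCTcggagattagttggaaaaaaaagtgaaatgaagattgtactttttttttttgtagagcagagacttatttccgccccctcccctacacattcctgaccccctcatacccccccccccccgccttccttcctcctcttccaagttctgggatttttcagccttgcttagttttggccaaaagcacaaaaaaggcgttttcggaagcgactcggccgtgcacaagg
Sult1a1: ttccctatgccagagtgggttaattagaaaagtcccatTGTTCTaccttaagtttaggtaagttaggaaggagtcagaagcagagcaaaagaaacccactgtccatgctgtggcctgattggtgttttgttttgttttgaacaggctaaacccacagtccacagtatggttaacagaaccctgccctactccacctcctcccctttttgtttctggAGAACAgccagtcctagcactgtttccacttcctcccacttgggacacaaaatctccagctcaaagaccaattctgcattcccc
Tsc22d3: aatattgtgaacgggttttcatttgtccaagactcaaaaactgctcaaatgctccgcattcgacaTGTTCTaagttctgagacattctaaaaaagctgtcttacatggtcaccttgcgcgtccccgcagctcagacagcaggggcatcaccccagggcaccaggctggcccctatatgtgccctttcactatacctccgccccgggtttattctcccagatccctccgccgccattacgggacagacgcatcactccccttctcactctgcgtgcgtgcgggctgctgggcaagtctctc
In Sgk1 the palindrome reads AGAACAgaaTGTTCT, and a further TGTTCT stands near the start of the window. In Sult1a1 the arms at -212 and -34 are far apart, and in Tsc22d3 there is a single arm at -185. A match is a run of letters and not a measured binding site, and nothing follows from a window without one.

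The libraries were sequenced to between 13261478 and 23807390 counts. Levels are given as CPM, counts scaled to library size with TMM factors. Trem2, the gene that differs by design, was at 18.1 ± 8.94 CPM (SD, n = 5) in R47H-TREM2 and 16.5 ± 10.3 CPM (n = 3) in Trem2+/+ females of LG72, at 11.5 ± 3.20 (n = 5) and 24.1 ± 4.59 CPM (n = 2) in the males, and at 12.4 ± 11.1 (n = 6) in WT-TREM2 and 11.8 ± 4.99 CPM (n = 3) in Trem2+/+ females of LG73. Hippocampal neuron markers were present in every library, with a summed level of 3559.6 CPM or more. Some libraries also held transcripts of other tissues, here read from Prl (pituitary), Adora2a (striatum) and Omp (olfactory). Prl passed 50 CPM in Trem2+/+ female 3 of LG73 and in R47H-TREM2 female 5 of LG72, Adora2a was above 30 CPM in Trem2+/+ female 3 of LG72 and WT-TREM2 females 2 and 5 of LG73, and Omp was above 50 CPM in Trem2+/+ female 1 of LG72. In bulk tissue, fewer cells of a type and less RNA per cell cannot be told apart. The labels do not say whether the title numbers stand for separate animals, so p-values measure only the spread between these libraries.

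Of the 24 libraries, 2 carried the raised glucocorticoid signature, and both were Trem2+/+ controls of LG72: female 1 and male 2. A score was formed for each library as the mean, over the 9 genes, of log2 CPM centred on the mean of all libraries. Male 2 scored 2.04 and female 1 scored 1.68. The other 22 libraries lay between -0.42, in R47H-TREM2 female 3 of LG72, and 0.17, in WT-TREM2 female 4 of LG73, with a median of -0.20. The pair was picked by this score, so what follows for the 9 genes in these libraries is a description with no test. No other library came near the high pair, whose order stayed the same when any of the 9 genes was left out of the score and under each scaling tried.

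In 7 of the 9 genes (Fkbp5, Tsc22d3, Ddit4, Mfsd2a, Cdkn1a, Sult1a1 and Plin4) both libraries were above every other library, which held for 1.06% of all genes tested (171 of 16118). Male 2 was the highest library for 7 genes and female 1 for the other two, Tsc22d3 and Sult1a1. Among all genes, 13.7% were highest in male 2 and 5.70% in female 1. The exceptions were Sgk1 and Zbtb16, where female 1 stayed within the range of the rest. The remaining controls of the same groups did not share the pattern: Trem2+/+ females 2 and 3 of LG72 scored -0.39 and 0.12, and Trem2+/+ male 1 scored -0.16.

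**Figure D1:**
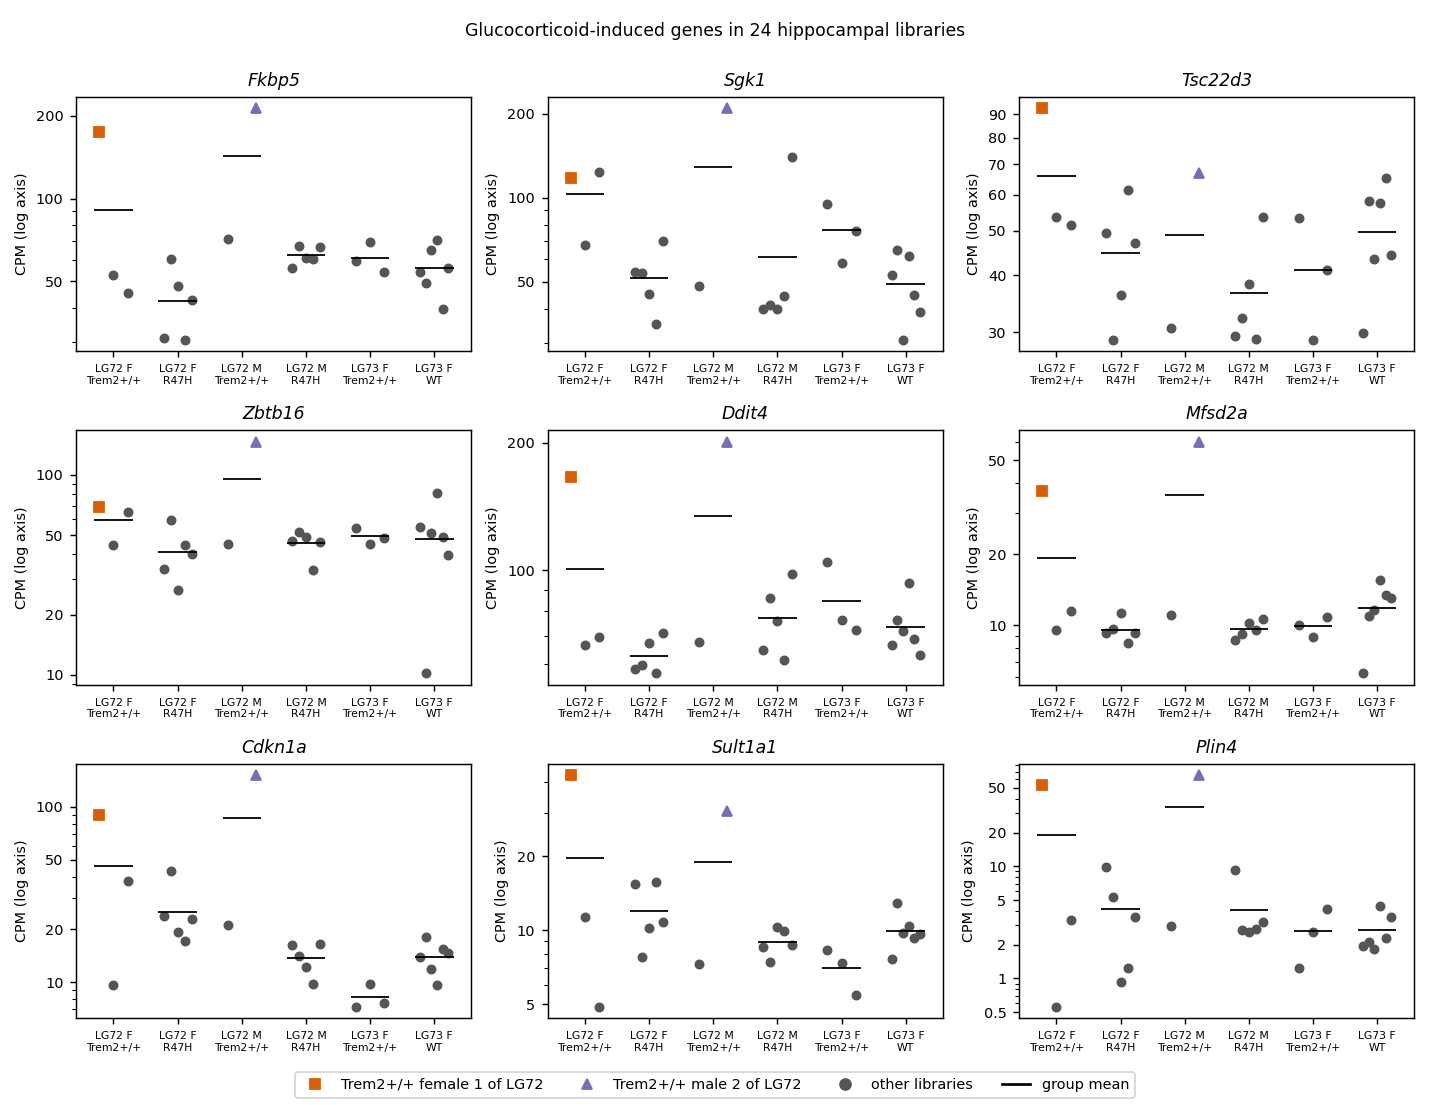
CPM (log axis) of the 9 glucocorticoid-induced genes in each of 24 hippocampal libraries, by group; points are libraries and bars are group means. The square (Trem2+/+ female 1 of LG72) and the triangle (Trem2+/+ male 2 of LG72) lie above all other points in 7 of 9 panels.

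The gene for the receptor's own brake, Fkbp5 (chr17:28399094-28517527, minus strand, GRCm38), encodes a co-chaperone of Hsp90 that lowers the receptor's affinity for hormone. In the 3 Trem2+/+ females of LG72 it stood at 174, 52.8 and 45.5 CPM, and in the 5 R47H-TREM2 females between 30.6 and 60.1 CPM with a median of 42.6. In the 2 Trem2+/+ males it stood at 71.5 and 213 CPM, and in the 5 R47H-TREM2 males between 56.0 and 67.3 CPM with a median of 60.8. In the LG73 females it ran from 54.2 to 69.3 CPM in 3 Trem2+/+ and from 39.6 to 70.9 CPM, with a median of 55.01, in 6 WT-TREM2 libraries. Female 1 and male 2 were 3.12 and 3.81 times the median of the other 22 libraries (56.0 CPM), which ran from 30.6 to 71.5 CPM. Within the males the groups did not overlap, since the lower control exceeded the highest R47H-TREM2 library by a few CPM.

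Sgk1 (chr10:21882184-21999903, plus strand) encodes a serine/threonine kinase that acts on ion channels and transporters. It was at 118, 67.4 and 123.55 CPM in the Trem2+/+ females of LG72 and between 35.3 and 69.8 CPM (median 53.6) in the R47H-TREM2 females. In the males it was at 48.0 and 209 CPM in Trem2+/+ and between 39.7 and 140 CPM (median 41.2) in R47H-TREM2 libraries. In LG73 it was at 94.9, 58.1 and 75.8 CPM in Trem2+/+ and between 30.9 and 65.1 CPM (median 48.8) in WT-TREM2 females. Sgk1 was therefore high in more libraries than the 2 described, and Trem2+/+ female 3 and R47H-TREM2 male 5 of LG72 exceeded female 1.

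Ddit4 (chr10:59949669-59951834, minus strand), whose product restrains mTORC1, was at 166 CPM in female 1 and 201 CPM in male 2, and between 57.1 and 105 CPM in the other 22 libraries. Tsc22d3 (chrX:140539528-140600659, minus strand), which encodes the anti-inflammatory leucine zipper protein GILZ, was at 92.9 and 67.1 CPM, and between 28.9 and 65.2 CPM in the rest. Male 2 exceeded the next library by little for Tsc22d3. Zbtb16 (chr9:48654297-48836222, minus strand), which encodes the transcription factor PLZF, was at 69.3 CPM in female 1 and 147 CPM in male 2. The rest of the Zbtb16 levels ran from 10.2 CPM, in WT-TREM2 female 2 of LG73, to 81.1 CPM, in WT-TREM2 female 4, so that only male 2 stood clear. The library with the lowest Zbtb16 had Adora2a, a marker of striatum, at 57.8 CPM, and the part of this in the low value was not tested.

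Mfsd2a (chr4:122946850-122961188, minus strand) encodes the transporter that carries lysophosphatidylcholine with docosahexaenoic acid across the brain endothelium. It was at 37.0, 9.56 and 11.4 CPM in the Trem2+/+ females of LG72 and between 8.37 and 11.2 CPM (median 9.25) in the R47H-TREM2 females. In the males it was at 11.02 and 60.0 CPM in Trem2+/+ and between 8.65 and 10.7 CPM (median 9.52) in R47H-TREM2 libraries. In LG73 it was at 10.001, 8.93 and 10.8 CPM in Trem2+/+ and between 6.24 and 15.6 CPM (median 12.3) in WT-TREM2 females. The gene thus ran from 6.24 to 15.6 CPM in 22 libraries and was at 3.67 and 5.95 times their median in female 1 and male 2. The 9 endothelial markers summed to 172 CPM in female 1 and 144.4 CPM in male 2, within the 122.5 to 261 CPM of the other 22. The part of endothelial share in the Mfsd2a levels was not tested.

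Cdkn1a (chr17:29090976-29100727, plus strand) encodes the cyclin-dependent kinase inhibitor p21. It was at 90.4, 9.61 and 37.9 CPM in the Trem2+/+ females of LG72 and between 17.1 and 43.2 CPM (median 22.9) in the R47H-TREM2 females. In the males it was at 21.1 and 152 CPM in Trem2+/+ and between 9.76 and 16.4 CPM (median 14.1) in R47H-TREM2 libraries. In LG73 it was at 7.22, 9.80 and 7.58 CPM in Trem2+/+ and between 9.61 and 18.1 CPM (median 14.3) in WT-TREM2 females. Female 1 and male 2 were 6.01 and 10.1 times the median of the rest, and the males' groups did not overlap although the other control, male 1, was near the R47H-TREM2 range. In the GENCODE M21 annotation Cdkn1a shares 273 bases (7.68% of its exon length) with AC167363.2 on the opposite strand, and no source says whether counting used strand.

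Plin4 (chr17:56100591-56109803, minus strand), a coat protein of lipid droplets, showed the widest ratio. It was at 52.997, 0.559 and 3.36 CPM in the Trem2+/+ females of LG72 and between 0.926 and 9.82 CPM (median 3.53) in the R47H-TREM2 females. In the males it was at 2.92 and 65.1 CPM in Trem2+/+ and between 2.59 and 9.34 CPM (median 2.76) in R47H-TREM2 libraries. In LG73 it was at 1.25, 2.61 and 4.14 CPM in Trem2+/+ and between 1.82 and 4.44 CPM (median 2.22) in WT-TREM2 females. Female 1 and male 2 were 19.5 and 23.9 times the median of the rest. Plin4 was also the most variable of the 9 among the other 22 libraries, with a coefficient of variation of 71.1% against 17.3% for Ddit4, the steadiest. Sult1a1 (chr7:126672865-126676432, minus strand), a sulfotransferase of phenols, was at 42.6 CPM in female 1 and 30.5 CPM in male 2, and between 4.89 and 15.7 CPM in the rest.

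Compared per length, as median CPM per kilobase of exon over 24 libraries, Ddit4 was the most abundant at 40.1. Sgk1, Tsc22d3 and Zbtb16 followed at 10.997, 10.5 and 8.9998, and Sult1a1, Fkbp5, Mfsd2a and Cdkn1a at 6.43, 6.08, 4.63 and 4.47. Plin4 was last at 0.492. Neighbours in this order from Sgk1 to Cdkn1a differed by less than the range of either gene across libraries, whereas the ranges of Ddit4 (32.6 to 114) and Plin4 (0.0967 to 11.3) did not meet. The 4 genes with the lowest median CPM (Plin4, Sult1a1, Mfsd2a and Cdkn1a) had the 4 highest ratios in female 1, and Plin4, Cdkn1a and Mfsd2a had the 3 highest in male 2.

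A further 22 genes known to be glucocorticoid-induced were next examined in the same 2 libraries. In 8 of them both libraries were again above all other libraries, which held for 1.06% of all genes tested. These were Hif3a, Map3k6, Arrdc2, Sesn1, Klf15, Cebpd, Nfkbia and Gpd1. In 19 of 22 both were above the median of all 24 libraries, which held for 18.8% of all genes tested. Hif3a, a hypoxia-inducible factor that responds to glucocorticoids, was at 10.4 CPM in female 1 and 7.70 CPM in male 2, and between 0.430 and 3.94 CPM in the rest. Klf15, a transcription factor of amino acid catabolism, was at 46.4 and 45.1 CPM, and between 13.8 and 36.8 CPM in the rest. Gpd1, the cytosolic glycerol-3-phosphate dehydrogenase, was at 166 and 233 CPM against 78.4 to 137 CPM.

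Not every known target followed in both libraries. Per1, the clock gene, was at 71.4 CPM in female 1 and 142 CPM in male 2, within the 25.4 to 144.7 CPM of the rest. These were 1.38 and 2.75 times the median of the rest, and the 144.7 CPM was that of Trem2+/+ female 3 of LG72. Dusp1, a phosphatase of MAP kinases, was at 23.3 and 45.3 CPM (0.99 and 1.92 times the median), within 8.72 to 64.9 CPM. Angptl4, a lipoprotein lipase inhibitor, was at 8.499 CPM in female 1, above all other libraries, and at 2.77 CPM in male 2, just under the median of 2.94 CPM. Lcn2, an iron-binding acute-phase protein, was at 12.3 CPM in male 2 and 2.22 CPM in female 1, with at most 2.55 CPM elsewhere. The pair therefore differed from each other in Angptl4 and Lcn2 and resembled each other in Klf15 and Cebpd.

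**Figure D2:**
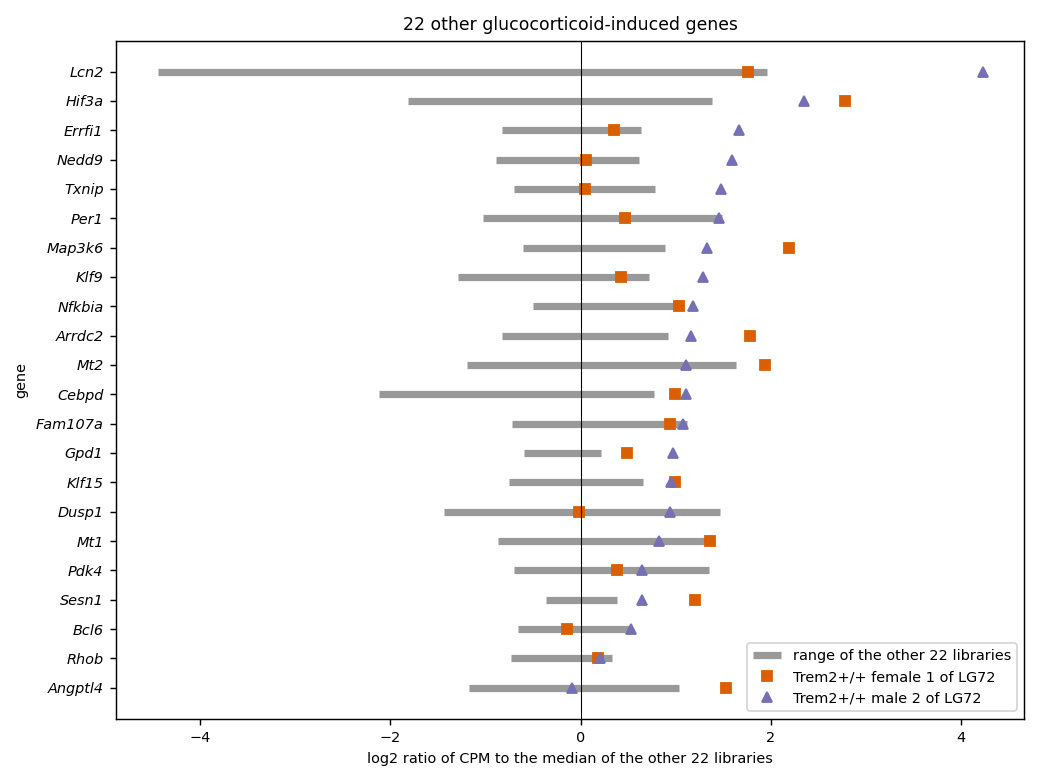
log2 ratio of CPM to the median of the other 22 libraries for 22 further glucocorticoid-induced genes; grey bars span the other 22 libraries, the square is Trem2+/+ female 1 and the triangle Trem2+/+ male 2 of LG72. In 8 genes both symbols lie right of the bar. The bar of Lcn2, which had no counts in at least 1 library, is cut at its left end.

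The receptor genes did not share the pattern. Nr3c1, the glucocorticoid receptor, was at 97.99 CPM in female 1 and 102 CPM in male 2, within the 70.4 to 135 CPM of the other 22 libraries. Nr3c2, the mineralocorticoid receptor, was at 68.1 CPM in female 1, under the median of 118 CPM, and at 192 CPM in male 2, above the highest other library (176 CPM). No gene of the 17 tested for the receptor, ligand supply and chaperones had both libraries above all others, against 1.06% of all genes tested.

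Other stress programmes were read in the same way. Both libraries were above all others for 1 of 18 p53 targets (Trp53inp1), 1 of 17 hypoxia-induced genes (Slc2a1) and 1 of 19 acute injury and YAP target genes (Maff). This held for 0 each of 15 integrated stress response genes, 11 FOXO targets and 12 immediate early genes, and for 1.06% of all genes tested. Of the 11 FOXO targets, 4 were highest in male 2 and 2 in female 1, against 13.7% and 5.70% of all genes. Their mean centred log2 CPM was 0.46 in male 2, the highest of 24, and 0.076 in female 1, with -0.74 to 0.23 in the rest. The mean centred log2 CPM of the 18 p53 targets was 0.27 in female 1 and -0.0036 in male 2, both within -0.29 to 0.32 of the rest. Mdm2, a p53 target like Cdkn1a, was at 58.9 CPM in female 1 and 50.4 CPM in male 2, against 30.6 to 54.4 CPM elsewhere. Trp53inp1, of the same list, was at 35.5 and 33.3 CPM, against 8.72 to 27.3 CPM elsewhere. Vegfa, which is induced by low oxygen as Ddit4 is, was at 22.9 and 18.5 CPM, within 17.8 to 35.7 CPM. Slc2a1 was at 115 and 169 CPM, against 61.2 to 102 CPM elsewhere. The part of p53 in the Cdkn1a levels and of low oxygen in the Ddit4 levels was not tested.

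Acute injury and immediate early genes separated female 1 from male 2. The mean centred log2 CPM of the 19 injury genes was 0.29 in female 1 and 1.43 in male 2, against -0.49 to 0.59 in the rest. Cyr61, a matrix protein gene induced by YAP, was at 3.72 CPM in female 1 and 174 CPM in male 2, with 2.28 to 25.4 CPM elsewhere. Zfp36, which encodes an RNA-decay factor, was at 4.22 and 44.3 CPM, and Csrnp1 was at 12.1 and 46.7 CPM. Male 2 was thus far above all other libraries and female 1 ordinary for these 3 genes. The mean of the 12 immediate early genes was -0.91 in female 1 and 0.19 in male 2, both within -0.98 to 1.14 of the rest, and Fos was at 7.89 and 56.4 CPM. Of the 12 genes, 2 were highest in male 2 (Fos and Nr4a1), against 13.7% of all genes. Arc was lowest of 24 in male 2, at 55.5 CPM. Egr1, at 195 CPM in male 2, lay within the 73.3 to 663 CPM of the rest. The raised glucocorticoid score was thus found with low Fos in female 1 and high Fos in male 2. This difference in Fos does not describe the list as a whole.

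**Figure D3:**
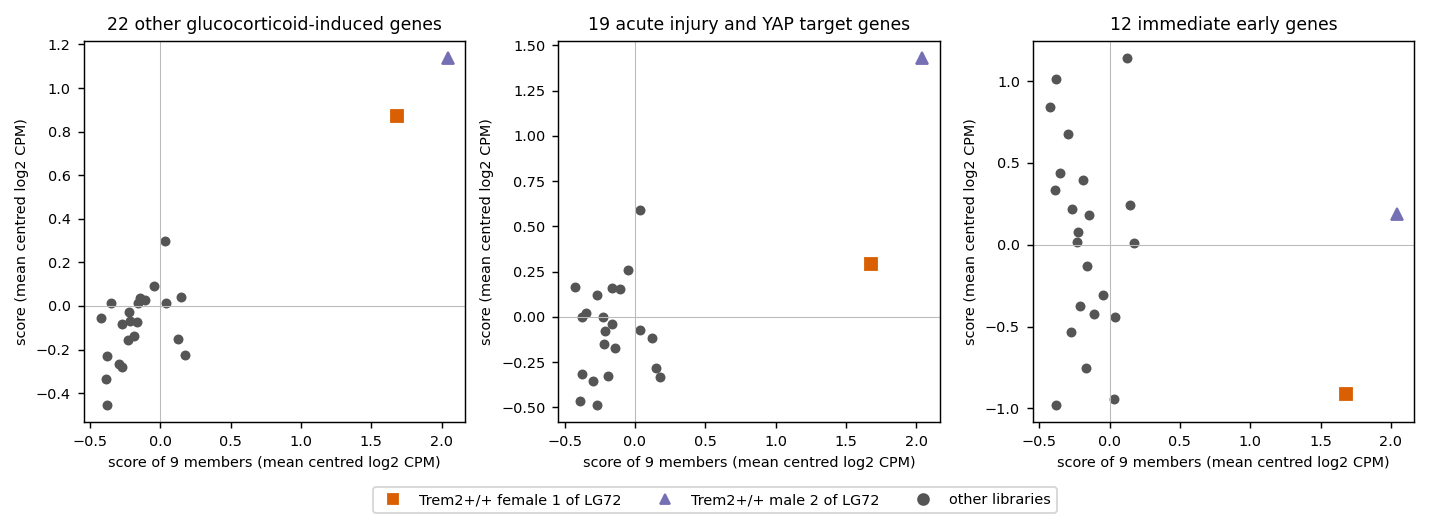
Score of the 9 glucocorticoid-induced genes (horizontal axis) against the scores of 22 other glucocorticoid-induced genes, 19 acute injury and YAP target genes and 12 immediate early genes (vertical axes), all as mean centred log2 CPM, with 1 point per library. Female 1 (square, 1.68) and male 2 (triangle, 2.04) are apart on the horizontal axis; male 2 alone is apart for injury genes at 1.43.

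Values of other tissues in the pair are given for the same reason. The 3 olfactory markers summed to 585 CPM in female 1 (Omp at 420 CPM) and 8.43 CPM in male 2, with 3.31 to 17.0 CPM in the other 22. Their part in the scores was not tested. Alb, a liver transcript, was at 70.4 CPM in female 1 and 10.4 CPM in male 2. Libraries were split into classes at 30 CPM of Alb. The 8 oligodendrocyte markers summed to 4304 CPM in male 2, the lowest of all, and 4883 CPM in female 1, with 4499.5 to 18522 CPM elsewhere. The slope of log2 CPM on log2 transcript length was -0.14 in female 1 and 0.22 in male 2, the highest of 24. The 8 astrocyte markers summed to 5715 CPM in female 1 and 8058 CPM in male 2, the highest of 24, with 3875 to 7780 CPM elsewhere. Of the 8, 1 (Gjb6) was above all other libraries in both, which held for 1.06% of all genes tested. No astrocyte or oligodendrocyte marker was at 0 in all libraries of a group. The part of liver transcripts, of astrocyte and oligodendrocyte share and of transcript length in the scores was not tested.

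The R47H-TREM2 allele was compared with Trem2+/+ in the females of LG72 to see whether the 9 genes changed with genotype. All 9 estimates were lower in R47H-TREM2, with a median log2 fold change of -0.86 against 0.0049 over all genes tested. None was called by edgeR at an adjusted p under 0.05, as for all genes (0% of 16118 called), and 5 had an unadjusted p under 0.05, as had 2262 of all genes. Fkbp5 was at 42.5 ± 12.4 CPM (SD, n = 5) against 90.9 ± 72.4 CPM (n = 3), a log2 fold change of -1.09 (SE 0.34, adjusted p = 0.193 in edgeR). Sgk1 was at 51.6 ± 12.8 against 103 ± 30.8 CPM, a log2 fold change of -0.995 (SE 0.40, adjusted p = 0.286 in edgeR). No gene of the 9 had groups that did not overlap, while 2.39% of all genes were lower without overlap. Female 1, picked for high values of these genes, was among the controls, so these results are no independent test of genotype.

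Markers of other cell types differed in the same contrast, with 0 called. All 8 oligodendrocyte estimates were higher in R47H-TREM2 females, and the summed markers, at 7892 to 18522 CPM against 4827 to 6080 CPM, did not overlap. All 8 microglial estimates were higher too, led by Aif1 at 1.93 (adjusted p = 0.141 in edgeR), with sums of 407 to 1245 CPM against 384 to 487 CPM. So were all 8 of the choroid plexus, with sums of 361 to 3455 CPM against 63.007 to 613 CPM, and 6 of 8 of astrocytes (4846 to 7780 against 3983 to 5715 CPM). The estimates of all 5 striatal and all 3 olfactory markers were lower. Their part in the values of the 9 genes was not tested.

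Without female 1 and male 2 the median of the 9 genes in the females was -0.18, and 3 of 9 estimates were higher in R47H-TREM2. Fkbp5 moved to -0.24 (SE 0.24, adjusted p = 0.589 in edgeR). Plin4 went from -2.19 (SE 0.89) to 1.02 (SE 0.78). Sgk1 was at -0.93 (SE 0.40, adjusted p = 0.246 in edgeR), and Trem2+/+ female 3 of LG72, which remained among the controls, was also high for it. That library carried striatal transcripts (Adora2a at 53.6 CPM), and the part of these in its Sgk1 level was not tested.

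In the males of LG72 all 9 estimates were again lower in R47H-TREM2, with a median log2 fold change of -1.08 against 0.03 over all genes. EdgeR called 0 of the 9 and 0% of all genes, and 8 of the 9 had an unadjusted p under 0.05, as had 995 of all genes. Cdkn1a was at 13.7 ± 2.83 CPM (SD, n = 5) against 86.5 ± 92.5 CPM (n = 2), a log2 fold change of -2.65 (SE 0.52, adjusted p = 0.164 in edgeR). Mfsd2a was at 9.63 ± 0.803 against 35.5 ± 34.6 CPM, a log2 fold change of -1.88 (SE 0.42, adjusted p = 0.638 in edgeR). Fkbp5, Mfsd2a and Cdkn1a were the 3 genes whose groups did not overlap, which held in this direction for 4.95% of all genes. DESeq2 called 1 of the 9, Cdkn1a (-2.68, adjusted p = 0.0112 in DESeq2), and limma-voom called 0. Male 2, picked for high values of these genes, was among the controls, so these results are no independent test of genotype. In the same contrast all 8 oligodendrocyte estimates were higher in R47H-TREM2 (summed markers at 5354 to 15172 against 4304 and 6385 CPM), as were all 8 of the choroid plexus (96.9 to 2553 against 119 and 163 CPM). Those of astrocytes were lower for 7 of 8 (3875 to 6594 against 4601 and 8058 CPM) and those of injury genes for 18 of 19, with 0 called, and their part was not tested.

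By Alb class, the median difference of the 9 genes in log2 CPM was -1.22 in the females above 30 CPM (2 against 2 libraries) and -0.11 in those below (3 against 1). In the males it was -0.02 above (4 against 1) and -1.93 below (1 against 1). Female 1 was in the class above and male 2 in the class below, and as both were picked for high values of these genes, the difference between classes is a description that this choice fixes.

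The comparison of the males rested on which of the 2 control males was kept. Without female 1 and male 2 the median was 0.17, with 5 of 9 estimates higher in R47H-TREM2, and Cdkn1a was at -0.64 (SE 0.48, adjusted p of 1 in edgeR). With male 2 as the lone control, which was assumed to vary like the other groups, Mfsd2a was at -2.63 and Cdkn1a at -3.46, and both passed the threshold of edgeR; since male 2 was picked for high values of these genes, that is a description and no independent test. The other control, male 1, was below male 2 in each of the 9 genes.

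**Figure D4:**
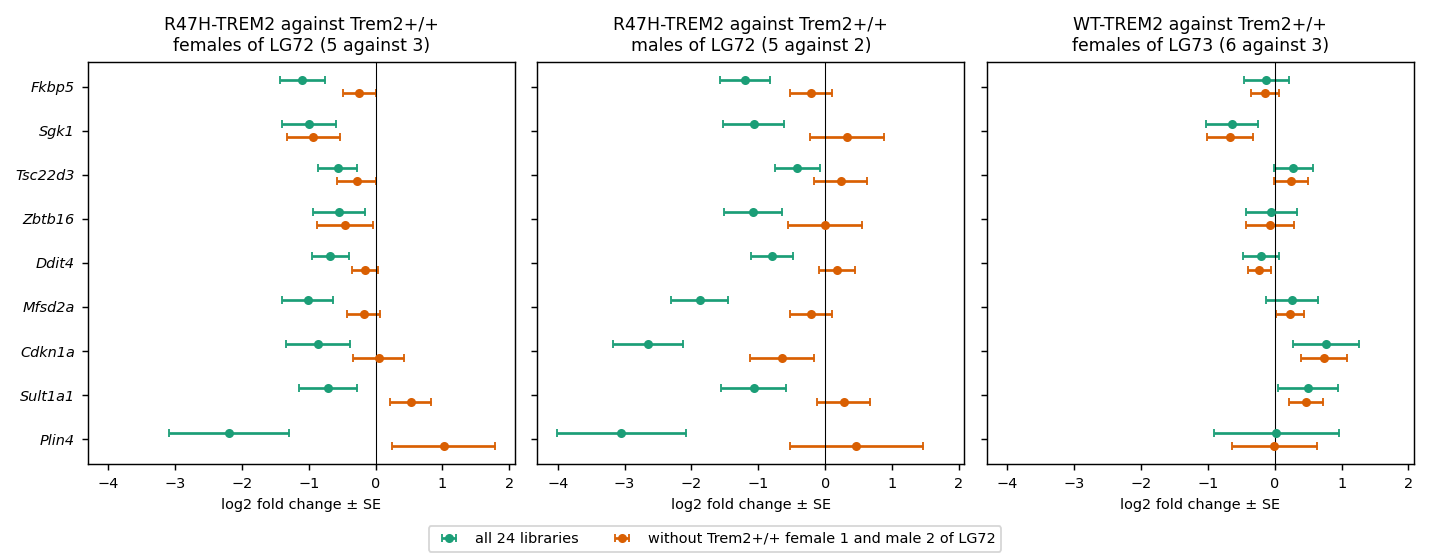
log2 fold change with SE of the 9 genes in 3 genotype comparisons, from the edgeR fit of all 24 libraries and from the fit without Trem2+/+ female 1 and male 2 of LG72. In both LG72 panels the estimates move towards or past 0 without the pair, least for Sgk1 (-0.995 to -0.93) and Zbtb16 (-0.54 to -0.46) in females; in LG73 they hardly move.

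In the LG73 females, whose controls were other mice, WT-TREM2 showed no shared direction. The median log2 fold change was 0.03 against 0.04 over all genes, with 4 estimates lower and 5 higher. EdgeR called 0 of the 9 and 0% of all genes, none of the 9 had an unadjusted p under 0.05 and 630 of all genes did. Sgk1 was at 48.97 ± 13.3 CPM (SD, n = 6) against 76.3 ± 18.4 CPM (n = 3), a log2 fold change of -0.64 (SE 0.39, adjusted p = 0.860 in edgeR). Cdkn1a was at 13.9 ± 2.94 against 8.20 ± 1.40 CPM, a log2 fold change of 0.76 (SE 0.50, adjusted p = 0.860 in edgeR). No gene had groups that did not overlap, against 2.82% of all genes in either direction.

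The R47H effect minus the WT effect in females was negative for all 9 genes, with a median of -0.97 on the log2 scale and -0.04 over all genes. EdgeR called 0 of the 9 (0% of all genes). The smallest adjusted p was 0.481 for Cdkn1a, at -1.63 (SE 0.69) in edgeR, and 2 of the 9 and 1459 of all genes had an unadjusted p under 0.05. Without the pair the median was -0.27 with 3 of 9 positive. The R47H effect in males minus that in females had a median of -0.36, with 8 of 9 negative, and 0 called by edgeR (0% of all genes). Cdkn1a was lowest at -1.79 (SE 0.73, adjusted p = 0.854 in edgeR), the single gene of the 9 with an unadjusted p under 0.05, as were 860 of all genes. Without the pair this median was 0.02. Both differences are built from the libraries of the single comparisons and share their controls.

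Males and females with R47H-TREM2, a contrast that holds neither of the high libraries, showed no common direction. The median log2 difference of males from females was 0.02, with 4 genes lower and 5 higher in males, against -0.03 over all genes. EdgeR called 0 of the 9 and 5 of all genes (0.031%), and 0 of the 9 had an unadjusted p under 0.05, as had 1134 of all genes. Cdkn1a was lower in every male (9.76 to 16.4 CPM) than in any female (17.1 to 43.2 CPM), with a log2 difference of -0.88 (SE 0.43, adjusted p = 0.684 in edgeR); 0.36% of all genes were lower in males without overlap. Fkbp5 was at 62.3 ± 4.77 CPM in males and 42.5 ± 12.4 CPM in females (SD, n = 5 each), a log2 difference of 0.55 (SE 0.30, adjusted p = 0.684 in edgeR).

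The other glucocorticoid-induced genes were read across the same contrasts. In the females of LG72, 14 of 22 estimates were lower in R47H-TREM2, the median was -0.17 and 0 were called; Per1 had the smallest p at -1.06 (adjusted p = 0.193 in edgeR). Of all 16118 genes, 7982 were lower. Per1, a clock gene, was at 71.4 CPM in female 1, the lowest of its 3 controls, and at 74.8 and 144.7 CPM in the others. In the males, 22 of 22 were lower, against 7578 of all genes, the median was -0.63 and 0 were called. Errfi1, a feedback inhibitor of EGF receptor signalling, had the smallest p at -1.12 (adjusted p = 0.779 in edgeR). One of the 2 male controls was male 2, picked for high values of the 9 genes. The mean centred log2 CPM of these 22 genes was 1.14 in male 2 and 0.015 in male 1, the other control. In the 5 R47H-TREM2 males it ran from -0.23 to 0.043. No fit without the pair is given for the 22 genes, so the part of male 2 in this count was not tested. In LG73, 9 were lower and 13 higher, the median was 0.04 and 0 were called. Of the 7 other lists (receptor and chaperones, p53, integrated stress response, hypoxia, FOXO, immediate early and acute injury genes), no gene was called in any of the 6 comparisons. Acute injury genes had the most unadjusted p-values under 0.05 among them in the males of LG72, with 9 of 19. Of all 16118 genes, 995 had one. Cyr61 led the injury genes at -4.19 (adjusted p = 0.164 in edgeR). It was at 174 CPM in male 2 and 7.44 CPM in male 1, with 2.89 to 8.07 CPM in the R47H-TREM2 males. The part of male 2 in the count of injury genes was not tested.

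Whether the 9 genes moved together library by library was examined over 36 pairs of genes. Over all 24 libraries 28 pairs passed a two-sided permutation test of Pearson's r and 2 that of Spearman's rho after Benjamini-Hochberg adjustment. Because female 1 and male 2 form a cluster of their own, no pooled r is given. Over the other 22 libraries 0 of 36 pairs passed, r ran from -0.50 (Fkbp5 with Sult1a1) to 0.54 (Fkbp5 with Ddit4) with a median of 0.04, and 20 pairs were positive. Within LG73, which holds neither library, 0 pairs passed and the median r was 0.03. The relation between these genes thus rested on the 2 libraries. Among the rest, Fkbp5, Ddit4 and Sgk1 had the highest values (0.54 for Fkbp5 with Ddit4 and 0.51 for Sgk1 with Ddit4), and Fkbp5 with Sgk1 was at 0.07.

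**Figure D5:**
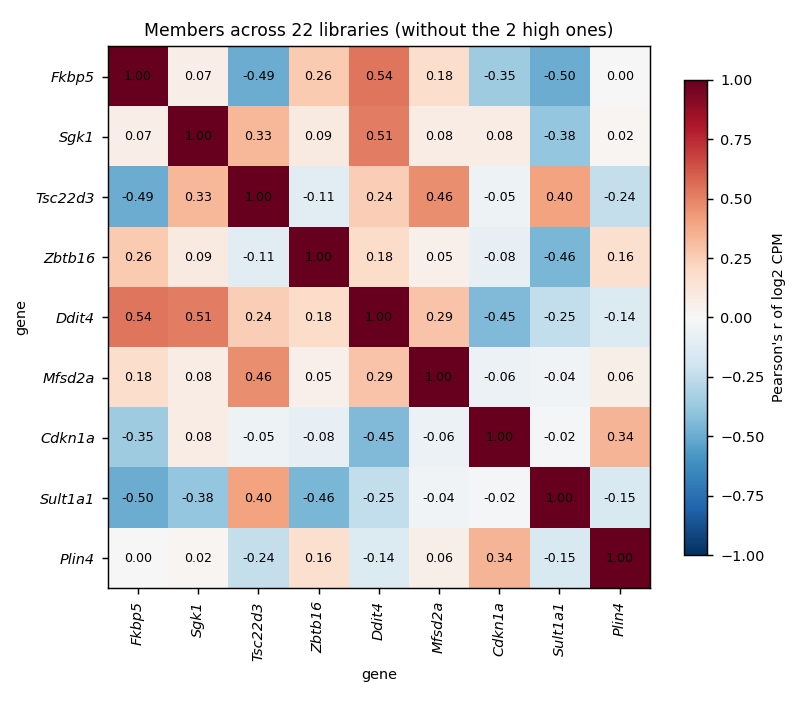
Pearson's r of log2 CPM between the 9 genes over the 22 libraries without Trem2+/+ female 1 and male 2 of LG72; colours run from blue (-1) to red (1). Positive and negative cells are mixed, and the range off the diagonal is -0.50 to 0.54.

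The genes whose levels were most like the 9-gene score were sought among 11524 other genes with a mean of at least 5 CPM, by Pearson's r over the 24 libraries as a measure of likeness, which rests on the high pair. Lrrc8a, a subunit of the volume-regulated anion channel, came first with 0.85 and, of the 10 genes named here, had the closest likeness in the other 22 libraries (0.61). It was at 89.2 CPM in female 1 and 130 CPM in male 2, and between 37.7 and 75.9 CPM elsewhere. Next came 1810026J23Rik, Tollip and Pnpla2 at 0.80 each, Slc2a1 at 0.79, Rhou, Htra1 and Aff1 at 0.78, Mafk at 0.77 and Nfkbia at 0.75. Pnpla2, the triglyceride lipase of lipid droplets, was at 35.8 and 55.8 CPM in the pair against 9.39 to 23.02 CPM elsewhere. Slc2a1, the glucose transporter of the blood-brain barrier, was at 115 and 169 CPM against 61.2 to 102 CPM. In the other 22 libraries the likeness of these genes, Lrrc8a and Nfkbia (0.51) apart, was 0.33 or less.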

How the data were processed

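Oligo(dT) beads were used on hippocampal total RNA before sequencing, per the labels' protocols. The values used are raw read counts per gene symbol, deposited by the authors as whole numbers for 24 libraries and aligned to GRCm38 per the submitters' processing notes. Aligner, counter, annotation and strandedness: not given in the sources used here. Another 18 columns (6 hippocampal, 12 in vitro) matched no sample and were not used here. Of 24058 symbols, 25 read as dates.

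Counts were filtered with filterByExpr, scaled by TMM and fitted with edgeR 4.0.16 (quasi-likelihood) in R 4.3.3, over all 24 libraries with a mean for each of 6 groups and no covariate. Benjamini-Hochberg adjustment ran over all 16118 genes, with calls at an adjusted p under 0.05. The common biological coefficient of variation was 0.318. Log2 CPM in scores and correlations had a prior count of 2; permutation tests of correlations drew 100000 resamples. Positions and exon lengths came from GENCODE M21. No 2 libraries of a group agreed within sampling noise (chi-square per degree of freedom of at least 10.7 over 42 pairs). The test was tried on simulated counts.

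The 9 genes, the lists and the tests were chosen with earlier results of these data known, as were the members' likeness rule and the Alb, Prl, Omp and Adora2a limits. Named genes were the 9, those of smallest p on a list, the 10 most like the score, Trem2 and markers. Hif3a, Klf15, Gpd1, Dusp1, Angptl4, Lcn2, the receptors, Mdm2, Vegfa, Fos, Nr4a1, Arc, Egr1, Zfp36 and Csrnp1 were picked once their values were known. The alternatives tried were DESeq2 1.42.0 (its size factors and its Wald test), upper-quartile factors, limma-voom (limma 3.58.1, weighted samples), no filter, a robust fit, only the groups compared, a prior count of 0.5, the score without each gene, and each library left out. Fits added after the data were seen left out 6 libraries past the Prl, Omp or Adora2a limits, or female 1 and male 2. Others added then had transcript length slope or Alb class as a term.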

Additional observations from a re-analysis of the deposited data

Results flagged for a closer look

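Within groups of 4 to 10 libraries, 3 of 30 sets of values (the 9 genes and their score, each in 3 groups) held a library far from the others by Dixon's gap, where chance gives about 1 in 20. In R47H-TREM2 female 2 of LG72, Cdkn1a was at 43.2 CPM, and it was between 17.1 and 23.7 CPM in the other 4 libraries of its group. Ttr, a choroid plexus transcript, was at 2944 CPM in that library, the highest of 24, and its part in the Cdkn1a level was not tested. Sgk1 was at 140 CPM in R47H-TREM2 male 5 of LG72 and between 39.7 and 44.4 CPM in the other 4. Tsc22d3 and Ddit4 were also highest of their group in that library, at 53.7 and 97.8 CPM, while Fkbp5 (66.9 CPM) was not. Plin4 was at 9.34 CPM in R47H-TREM2 male 1 of LG72 and between 2.59 and 3.19 CPM in the other 4. The Trem2+/+ groups, with 2 or 3 libraries, were too small for this test, so female 1 and male 2 of LG72 could not be flagged by it.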

How the results depend on the processing

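The high scores of Trem2+/+ male 2 and female 1 of LG72 kept their order, ahead of every other library, under each scaling, prior count and gene left out. No member was called in 5 of the 6 comparisons under any alternative. In the males of LG72, DESeq2 called 1 and leaving out 1 library called 0 to 2, the 2 with male 2, picked for high values of these genes, as the lone control. The 3 and 2 controls limit the genotype comparisons of LG72, where 1 control of each sex stood apart, and Plin4, at 0.559 CPM in its lowest library, was the gene most exposed to counting error. No paired analysis was possible because title numbers are unique within a prefix, so the groups set against each other share fewer than 2 numbers.

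Counts of all genes called went from 0 in edgeR to 187 in the females of LG72 with the Wald test of DESeq2, to 3 in the males, 13 for the R47H minus the WT effect and 1 for the difference of the sexes, and from 5 to 10 for males against females. In the females 1 gene was called with no filter and 1 with the transcript length slope. Leaving out each library gave 0 to 7 genes in the females, 0 to 48 in the males, 0 to 1 for either difference of effects and 5 to 6 for males against females. The median of the 9 genes ran from -1.26 to -0.18 in the females, -1.77 to 0.19 in the males, -0.20 to 0.27 in LG73, -1.29 to -0.27 for the R47H minus the WT effect, -1.01 to 0.87 for the sexes' difference and -0.03 to 0.12 for males against females. Without the high pair it was -0.18, 0.17 and -0.27 in the females, the males and the R47H minus the WT effect. Without the 6 libraries past the Prl, Omp or Adora2a limits, female 1 among them, it was -0.11 in the females. It was then -0.14 for the R47H minus the WT effect and -0.98 for the sexes' difference. Pairs of correlated genes fell from 28 to 0 without the high pair and 0 within LG73, and ran from 5 to 30 on leaving out each library. Scores that moved by more than their group's SD were all in LG73. Trem2+/+ female 1 went to -0.29 without Sgk1, -0.24 without Tsc22d3, -0.27 without Ddit4, -0.049 without Cdkn1a and -0.036 without Plin4. Trem2+/+ female 2 went to -0.36 without Fkbp5 and -0.22 without Cdkn1a. Trem2+/+ female 3 went to -0.29 without Sgk1, -0.095 without Cdkn1a, -0.14 without Sult1a1 and -0.28 without Plin4, and WT-TREM2 female 2 to -0.032 without Zbtb16.

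Of 54 log2 fold changes (9 genes in 6 comparisons), some took the other sign under an alternative, in 37 values, of which 17 arose without the high pair and 0 were called. Without the high pair, in the females Cdkn1a was at 0.048, Sult1a1 at 0.52 and Plin4 at 1.02, and in the males Sgk1 at 0.33, Tsc22d3 at 0.24, Ddit4 at 0.17, Sult1a1 at 0.28 and Plin4 at 0.47. In the same fit Plin4 was at -0.0046 in LG73 and 0.0028 for males against females. The R47H minus the WT effect was then 0.073 for Ddit4, 0.058 for Sult1a1 and 1.02 for Plin4, and the sexes' difference 0.023 for Fkbp5, 1.26 for Sgk1, 0.46 for Zbtb16 and 0.33 for Ddit4. Without the 6 libraries, in the females Mfsd2a was at 0.0040, Cdkn1a at 1.43, Sult1a1 at 0.11 and Plin4 at 2.92, and in LG73 Zbtb16 was at 0.18. The R47H minus the WT effect was then 0.21 for Sgk1, 0.16 for Ddit4, 0.88 for Cdkn1a and 2.31 for Plin4, and the sexes' difference -0.13 for Tsc22d3. With the length slope Zbtb16 was at 0.10 in LG73 and Tsc22d3 at -0.011 for the sexes' difference. With Alb class the sexes' difference was 0.032 for Fkbp5, -0.14 for Tsc22d3 and 0.085 for Plin4, and males against females gave -0.021 for Mfsd2a and 0.24 for Plin4. With limma-voom Cdkn1a was at 0.026 in the females and Plin4 at 0.46 for males against females, and with DESeq2 Plin4 was at -0.0067 in LG73. The causes were not tested, beyond the fewer libraries fitted.

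On leaving out each library, 26 of the 54 took the other sign at least once. In the females Cdkn1a ran from -1.37 to 0.051, Plin4 from -2.79 to 1.01 and Sult1a1 from -1.17 to 0.53. In the males Ddit4 ran from -1.37 to 0.19, Plin4 from -3.99 to 0.49, Sgk1 from -1.77 to 0.35, Sult1a1 from -1.76 to 0.30, Tsc22d3 from -0.87 to 0.25 and Zbtb16 from -1.68 to 0.013. In LG73 Plin4 ran from -0.33 to 0.49 and Zbtb16 from -0.29 to 0.16. The R47H minus the WT effect ran from -0.71 to 0.074 for Ddit4, -2.80 to 1.01 for Plin4 and -1.67 to 0.059 for Sult1a1. The sexes' difference ran from -2.70 to 0.24 for Cdkn1a, -0.66 to 0.87 for Ddit4, -0.95 to 0.90 for Fkbp5, -1.70 to 0.82 for Mfsd2a, -4.06 to 2.68 for Plin4, -0.73 to 1.35 for Sgk1, -1.60 to 1.01 for Sult1a1, -0.26 to 0.82 for Tsc22d3 and -1.11 to 0.56 for Zbtb16. Males against females ran from -0.028 to 0.081 for Mfsd2a, -0.54 to 0.56 for Plin4 and -0.30 to 0.39 for Sgk1.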
